A study of Mus musculus with 4 samples.

Results

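Genomic imprinting marks a small group of mammalian genes by parent of origin, mostly through DNA methylation, so that in many tissues only the paternal or only the maternal copy is read. Many imprinted genes lie in clusters that share an imprinting control region, and many of them act on fetal growth, the placenta or the developing brain. Plagl1, also called Zac1, is a paternally expressed zinc finger factor that has been placed at the hub of a network of imprinted genes expressed together, with Igf2, H19, Cdkn1c and Dlk1 among its members. The genes described here are 43 imprinted mouse genes, chosen by name with earlier results of these data known. Of these, 19 are paternally expressed, 23 are maternally expressed, and Gnas is read from different parental copies for its different transcripts. All probe sets annotated to 1 of these genes and to no other were used, which gave 101 of the 45101 probe sets on the array. They measured 39 of the 43 genes, among 18194 genes measured in all. Rtl1, Slc22a3 and Zrsr1 had no probe set annotated to them alone, and that of H19 is shared with Mir675, so these genes were not analysed here.

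The RNA came from mouse embryonic stem cells (ESCs) of the Rax::GFP line, a single reporter line in which GFP marks cells that express Rax, a homeobox gene of the early forebrain and eye field. The cells were grown as floating aggregates in a growth factor-free medium (SFEBq culture) until day 4.5, then dissociated and separated by FACS into Rax::GFP+ cells, which are rostral, and Rax::GFP- cells, which are presumptive caudal. RNA was pooled from many aggregates in each experiment and measured on 2 arrays for each group, described as biological duplicates. Both groups carry the reporter and share the line, the medium and the day, so no untreated or wild-type group was involved. The arrays read both parental copies together, and allelic expression was not measured. In bulk RNA, fewer cells of a type and less RNA per cell cannot be told apart. Values are log2 expression values by the RMA method, differences are GFP- minus GFP+, and a call is an adjusted p under 0.05 from limma's moderated test over all probe sets. Array medians ran from 5.84 to 5.89, and the number of arrays limits the precision. With this many arrays, an exact two-sided permutation test has 0.333 as its smallest possible p. The labels were borne out by Rax (log2 difference -2.05, limma adjusted p = 0.00785), by Six3, a rostral marker (-0.85, limma adjusted p = 0.0389), and by Irx3, a caudal marker (2.59, limma adjusted p = 0.0175).

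Imprinted genes were called in both directions, and the paternally expressed genes accounted for most of the lower values in GFP- cells. By the most expressed probe set of each gene, 9 of the 39 genes were lower in GFP- cells (Plagl1, Peg12, Kcnq1ot1, Mest, Ppp1r9a, Ndn, Nnat, Sgce and Igf2) and 6 were higher (Calcr, Grb10, Dcn, Phlda2, Snrpn and Copg2). The share of all genes called in this comparison was 8.02%, with 2.63% lower and 5.4% higher. Among the imprinted genes 38.5% were called, with 23.1% lower and 15.4% higher. The genes were chosen with earlier results known, so these shares describe the listed genes and not imprinted genes in general. Of 25 measured imprinted genes outside the list, 8% were called. The remaining 24 of the 39 listed genes did not pass, although 23 of the 39 had an unadjusted limma p under 0.05. Of all 18194 genes, 4700 had such a p. The GFP+ and GFP- values did not overlap for 29 of the 39 genes (74.4%), against 60.1% of all genes. Of these 29 genes, 20 had their lower values in GFP- cells, against 3956 of the 10937 such genes overall. The median log2 difference was -0.12 over the imprinted genes and 0.05 over all genes. These calls depended on the arrays used. Without GFP+ replicate 1, 4 imprinted genes passed (Plagl1, Kcnq1ot1, Calcr and Grb10), and without GFP+ replicate 2, 9 passed. Without either GFP- array, no imprinted gene passed and neither did any other probe set on the arrays, where 7704 and 7697 probe sets had an unadjusted limma p under 0.05. Leaving out an array moved the log2 difference of none of the 15 called genes by over 1.5 times, while differences of several genes that did not pass, Asb4 and Ascl2 among them, moved by more.

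The calls also split by the parental copy expressed. Of the 17 paternally expressed genes measured, 8 were lower in GFP- cells, 1 was higher (Snrpn), and the log2 differences of 15 lay below 0, with a median of -0.51. Over all genes measured, 2.63% were called lower, 5.4% were called higher and 38.1% had a difference below 0. Of the 21 maternally expressed genes measured, 1 was lower (Ppp1r9a), 5 were higher, and 9 differences lay below 0, with a median of 0.07. Over all their probe sets the maternal genes showed no such lean, with 5 higher, 4 lower and 27 of 53 below 0, at a median of -0.03. The 43 paternal probe sets held 1 higher and 20 lower, with 34 below 0 and a median of -0.45. Of all probe sets on the array 3.64% were higher and 3.82% lower. These counts describe the listed genes, and no test of paternal against maternal genes was made. Without GFP+ replicate 1 the counts were 2 lower and 0 higher for the paternal genes, and 0 lower and 2 higher for the maternal genes. Without GFP+ replicate 2 the paternal genes had 4 lower and 0 higher. Of the 8 maternally expressed genes known to be imprinted mainly in the placenta, 7 were measured, and Dcn alone passed (14.3%, against 8.02% of all genes).

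**Figure D1:**
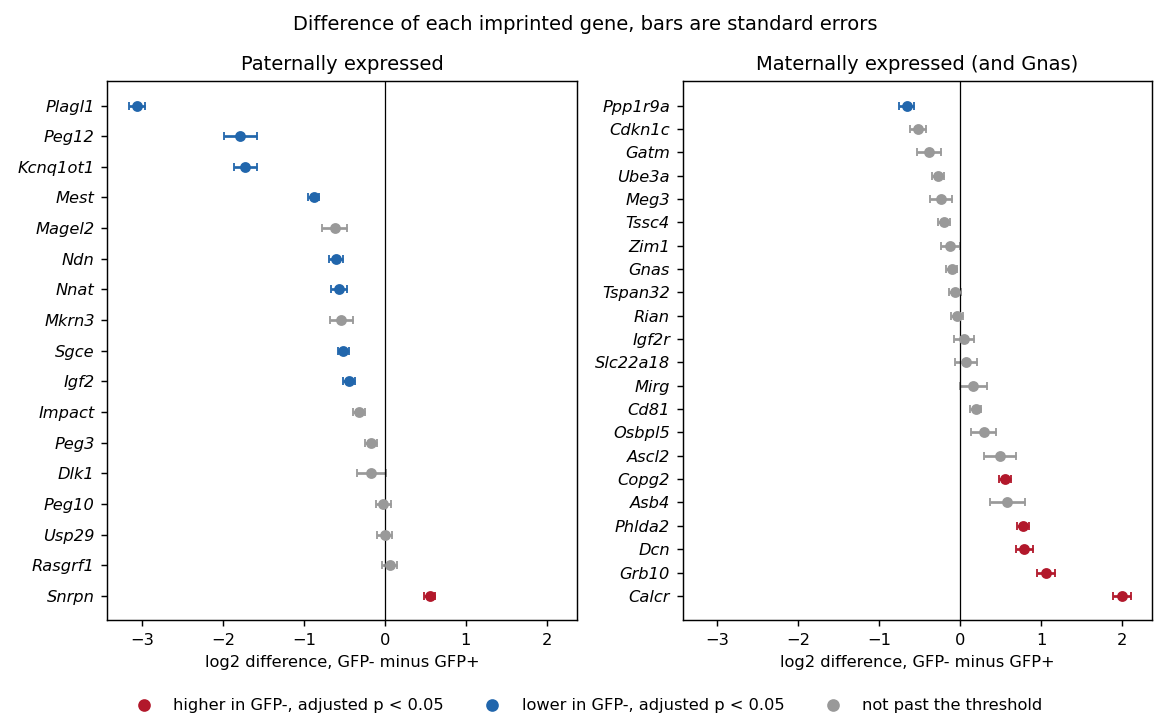
Log2 difference (GFP- minus GFP+, horizontal axis) of each imprinted gene at its most expressed probe set, with paternally expressed genes on the left and maternally expressed genes with Gnas on the right. Points are differences from 2 arrays per group, bars are standard errors from limma, and colours mark limma adjusted p under 0.05: the coloured paternal genes lie below 0 apart from Snrpn, and the coloured maternal genes lie above 0 apart from Ppp1r9a.

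Plagl1 had the lowest difference of the 18194 genes measured. Its product is a zinc finger transcription factor that restrains proliferation. Its most expressed probe set read 11.28 and 11.50 on the GFP+ arrays and 8.31 and 8.34 on the GFP- arrays, for a log2 difference of -3.06 (standard error 0.10, limma adjusted p = 0.00549) or 8.34-fold lower in GFP- cells. The groups stood far apart, and the spread within each group was small beside the gap. The type of this probe set (x_at) can also bind other transcripts. Both other probe sets of Plagl1, which are not of that type, were also lower, with log2 differences of -1.80 (limma adjusted p = 0.0389) and -1.02 (limma adjusted p = 0.0147). They were much less expressed. The former read 5.40 and 5.90 in GFP+ cells against 4.18 and 3.52 in GFP- cells, the latter values under a log2 value of 5. The probe set at -1.02 read 6.34 and 6.53 against 5.38 and 5.45. The call of the most expressed probe set held without either GFP+ array, with differences from -3.17 to -2.95 over the arrays left out.

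The sequences upstream of the 8 imprinted genes with the largest called differences and an entry in the promoter table are shown, since a match in letters to the binding motif of Plagl1, or to that of the imprint-protecting zinc finger protein Zfp57, can be read in them directly. Dcn falls in this range of differences and has no entry. Where a gene had several starts, the one with the most CpG dinucleotides is shown, a choice made after the matches were seen. The sequences are the 250 bases before the transcription start in the RefSeq promoter table (mouse build GRCm38.p6), written 5′ to 3′ on the strand of the gene, with motif matches in capitals. GGGGCCCC, which reads alike on both strands, is a GC-rich motif that Plagl1 binds, and TGCCGC, or GCGGCA on the other strand, is the motif of Zfp57, which binds it when methylated. Plagl1 lies at chr10:13090582-13090831 on the plus strand. Mest lies at chr6:30737800-30738049 on the plus strand. Kcnq1ot1 lies at chr7:143296548-143296797 on the minus strand. Peg12 lies at chr7:62464511-62464760 on the minus strand. Grb10 lies at chr11:12037421-12037670 on the minus strand. Phlda2 lies at chr7:143502525-143502774 on the minus strand. Ppp1r9a lies at chr6:4903061-4903310 on the plus strand. Calcr, the gene with the largest higher difference, lies at chr6:3763624-3763873 on the minus strand.
Plagl1: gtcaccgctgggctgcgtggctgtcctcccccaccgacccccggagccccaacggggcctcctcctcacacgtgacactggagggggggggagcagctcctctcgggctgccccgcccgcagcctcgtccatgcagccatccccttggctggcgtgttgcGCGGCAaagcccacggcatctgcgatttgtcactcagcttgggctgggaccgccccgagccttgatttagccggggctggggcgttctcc
Mest: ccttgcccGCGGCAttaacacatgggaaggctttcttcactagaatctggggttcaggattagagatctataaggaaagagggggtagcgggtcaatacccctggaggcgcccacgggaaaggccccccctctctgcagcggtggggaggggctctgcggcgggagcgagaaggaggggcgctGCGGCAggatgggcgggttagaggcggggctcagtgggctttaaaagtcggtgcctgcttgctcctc
Kcnq1ot1: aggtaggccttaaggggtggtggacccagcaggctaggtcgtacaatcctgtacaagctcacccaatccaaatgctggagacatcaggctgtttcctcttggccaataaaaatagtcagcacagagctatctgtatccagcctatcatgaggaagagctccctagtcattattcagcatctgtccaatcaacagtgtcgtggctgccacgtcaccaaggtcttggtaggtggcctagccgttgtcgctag
Peg12: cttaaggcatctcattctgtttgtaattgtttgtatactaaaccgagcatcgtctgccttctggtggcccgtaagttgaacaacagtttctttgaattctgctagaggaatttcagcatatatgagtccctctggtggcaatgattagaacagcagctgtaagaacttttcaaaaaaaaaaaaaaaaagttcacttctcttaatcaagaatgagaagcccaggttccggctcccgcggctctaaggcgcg
Grb10: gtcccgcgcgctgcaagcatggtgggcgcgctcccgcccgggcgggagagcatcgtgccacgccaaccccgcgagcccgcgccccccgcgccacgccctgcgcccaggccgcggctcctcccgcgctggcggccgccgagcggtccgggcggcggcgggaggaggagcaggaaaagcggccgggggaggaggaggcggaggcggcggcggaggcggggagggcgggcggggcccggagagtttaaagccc
Phlda2: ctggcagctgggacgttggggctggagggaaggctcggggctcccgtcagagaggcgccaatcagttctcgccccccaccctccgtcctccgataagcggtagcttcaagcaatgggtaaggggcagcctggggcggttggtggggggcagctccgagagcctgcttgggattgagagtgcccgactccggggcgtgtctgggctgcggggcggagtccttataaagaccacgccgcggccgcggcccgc
Ppp1r9a: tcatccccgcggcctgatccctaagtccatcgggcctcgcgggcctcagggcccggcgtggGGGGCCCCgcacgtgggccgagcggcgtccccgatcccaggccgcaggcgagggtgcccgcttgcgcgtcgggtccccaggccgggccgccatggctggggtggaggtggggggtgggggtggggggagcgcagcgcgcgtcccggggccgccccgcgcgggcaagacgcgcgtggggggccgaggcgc
Calcr: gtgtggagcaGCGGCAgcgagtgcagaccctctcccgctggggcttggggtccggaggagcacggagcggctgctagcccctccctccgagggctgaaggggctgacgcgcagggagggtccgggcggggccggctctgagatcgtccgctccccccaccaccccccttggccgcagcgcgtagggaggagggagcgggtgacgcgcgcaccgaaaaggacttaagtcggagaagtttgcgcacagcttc

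The table held 54 promoter windows (250 bases before to 50 after the start) of 36 of the 43 genes, and no entry for H19, Cdkn1c, Rtl1, Peg10, Sgce, Impact or Dcn. Positions below count from the first transcribed base as 1, with negative numbers before it. The Zfp57 motif TGCCGC, on either strand, was in 12 of the 54 windows (22.2%), which belong to 11 genes, and in 11.6% of all 32851 windows. A pair of the 12 are Mest windows that start 3 bases apart and hold the same matches. It was at -90 in Plagl1, at -242 and -67 in Mest, and at -240 and 16 in Calcr. It was also in windows of Copg2, Grb10, Igf2, Meg3, Nnat, Osbpl5, Snrpn and Zim1. The match of Grb10 was at 25, past the bases printed. The windows of Kcnq1ot1, Peg12 and Phlda2 held neither motif. The Plagl1 motif GGGGCCCC was in 4 of the 54 windows (7.41%) and in 1.08% of all windows. These were the windows of Ppp1r9a (-189), Rasgrf1 (-58), Peg3 (-201) and Usp29 (31), and the matches of Peg3 and Usp29 are the same bases, since the genes start head to head. Of the genes with this motif, Ppp1r9a was lower in GFP- cells and the others did not pass. The windows of imprinted genes had a median of 13.5 CpG dinucleotides and all windows a median of 7. No window held both motifs, and a match is a description of letters, not a binding site or a cause.

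The imprinted genes that have been placed in the Plagl1 network moved in both directions. Apart from Plagl1 itself, 13 of the 14 listed network genes were measured: 4 were lower in GFP- cells (Mest, Ndn, Sgce and Igf2), 2 were higher (Grb10 and Dcn), and 7 did not pass. Their median log2 difference was -0.24. Over all genes, 2.63% were lower and 5.4% were higher, with a median of 0.05. Mest, a paternally expressed gene of the hydrolase fold family that is strongly expressed in the mesoderm of embryos, read 14.17 and 14.20 in GFP+ cells against 13.29 and 13.31 in GFP- cells. Its log2 difference was -0.88 (standard error 0.07, limma adjusted p = 0.0111), or 1.84-fold lower, and the groups did not overlap. Ndn, which encodes the neuronal growth suppressor necdin, read 12.48 and 12.46 in GFP+ cells against 11.95 and 11.79 in GFP- cells, for a log2 difference of -0.60 (limma adjusted p = 0.0334). Sgce, which encodes epsilon-sarcoglycan, read 9.36 and 9.39 against 8.86 and 8.87, with a log2 difference of -0.51 (limma adjusted p = 0.0299). In each of these genes both GFP- arrays lay below both GFP+ arrays. The calls of Ndn and Sgce were lost without either GFP+ array, and that of Mest without GFP+ replicate 1.

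The growth factor axis of the network was represented by Igf2 and its receptor Igf2r, and is described here with Grb10 and Dcn. Igf2, a paternally expressed fetal growth factor, read 9.78 and 9.82 in GFP+ cells against 9.32 and 9.39 in GFP- cells. It differed by -0.45 on the log2 scale (standard error 0.08, limma adjusted p = 0.0434), the smallest called difference at a most expressed probe set of these genes. Its other probe set was dim, below a log2 value of 5 on all arrays, and did not pass. Igf2r, the maternally expressed receptor that clears Igf2, read 9.99 and 10.20 in GFP+ cells against 10.03 and 10.26 in GFP- cells. The groups overlapped, with a log2 difference of 0.05 and a 95% interval from limma of -0.29 to 0.38. Grb10, a maternally expressed adaptor that restrains insulin and Igf receptor signaling, read 6.0 and 5.76 in GFP+ cells against 6.87 and 7.01 in GFP- cells. Its log2 difference was 1.06 (standard error 0.12, limma adjusted p = 0.0190), or 2.09-fold higher in GFP- cells, with no overlap. Its remaining 2 probe sets were dim and did not pass. Dcn, the proteoglycan decorin, read 4.76 and 4.96 against 5.71 and 5.59, with a log2 difference of 0.79 (limma adjusted p = 0.0281). Both of its GFP+ values lay under a log2 value of 5. The other probe set of Dcn was dim and differed by 0.10 without passing (limma adjusted p = 0.573). The call of Igf2 was lost without either GFP+ array and that of Dcn without GFP+ replicate 1.

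Further network genes did not pass. Cdkn1c, a maternally expressed inhibitor of cyclin-dependent kinases, read 8.88 and 9.06 in GFP+ cells against 8.38 and 8.53 in GFP- cells, without overlap. Its log2 difference was -0.52 (95% interval from limma -0.79 to -0.24, adjusted p = 0.0595). It passed with Storey's q-value, with a filter on dim probe sets, with an intensity trend in the variance and with every gene taken as the mean of its probe sets, so its call depended on these choices. Dlk1, a paternally expressed Notch-like growth regulator, read 6.21 and 6.20 against 5.79 and 6.29, and these groups overlapped. Peg3, a zinc finger factor of maternal behaviour and growth, read 12.20 and 12.19 in GFP+ cells against 11.98 and 12.08 in GFP- cells, for a log2 difference of -0.17 (95% interval from limma -0.37 to 0.03). Gatm, an enzyme of creatine synthesis, had a log2 difference of -0.38 (limma adjusted p = 0.187). Gnas, which encodes a stimulatory G protein subunit and several alternative products, differed by -0.11 at its most expressed probe set (limma adjusted p = 0.430). The other probe sets of Gnas ran from -1.08 to 0.09, and none passed.

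**Figure D2:**
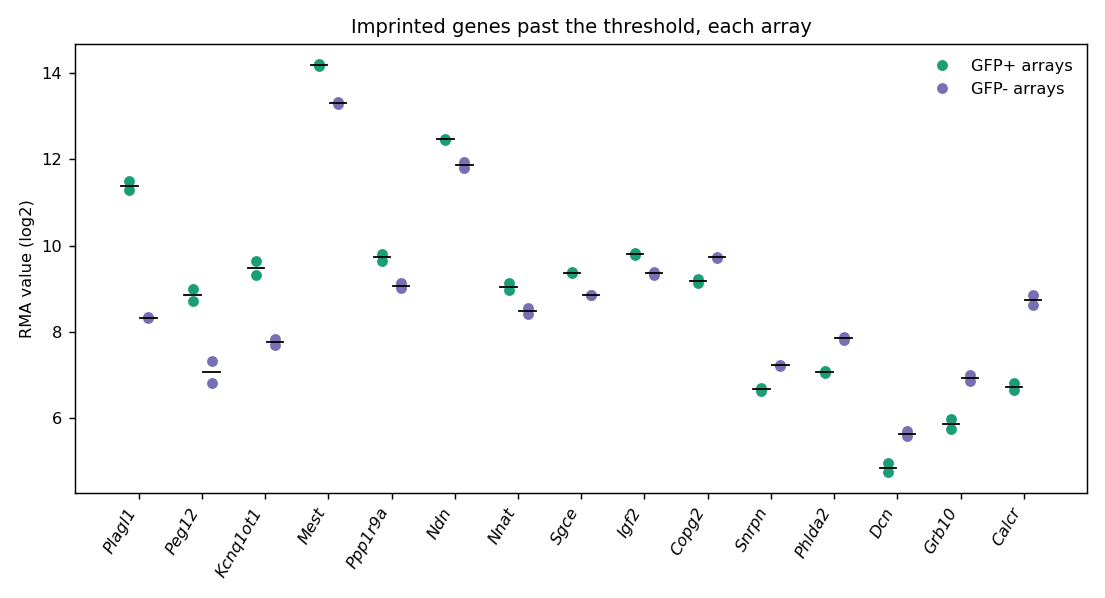
Log2 expression value by the RMA method (vertical axis) on each of the 4 arrays for the 15 imprinted genes past the threshold, ordered from the lowest to the highest difference. Points are arrays and lines are group means: Plagl1 shows the widest gap, from 11.28 and 11.50 in GFP+ cells to 8.31 and 8.34 in GFP- cells, and the groups overlap in none of these genes.

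Within the Kcnq1ot1 cluster the long noncoding RNA was lower in GFP- cells, Phlda2 was higher, and the other measured genes did not pass. Kcnq1ot1 is read from the paternal copy, where it silences neighbouring genes in cis. It read 9.66 and 9.31 in GFP+ cells against 7.69 and 7.83 in GFP- cells. It differed by -1.73 on the log2 scale (standard error 0.14, limma adjusted p = 0.0115), or 3.31-fold lower, with groups far apart. It had 6 probe sets, of which 5 were lower. The largest difference among them was -2.21 (limma adjusted p = 0.0102), from 8.87 and 8.46 in GFP+ cells to 6.35 and 6.55 in GFP- cells. The probe set that did not pass was dim and differed by -0.30, and 1 of the 5 lower probe sets was dim too, with a difference of -0.51 (limma adjusted p = 0.0359). The call at the most expressed probe set held without either GFP+ array.

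Phlda2, a maternally expressed gene that restrains placental growth, was the cluster's gene that was higher. It read 7.05 and 7.10 in GFP+ cells against 7.82 and 7.89 in GFP- cells, for a log2 difference of 0.78 (standard error 0.07, limma adjusted p = 0.0147). This call was lost without GFP+ replicate 1. Each of the remaining 7 measured genes of the cluster did not pass, with log2 differences from -0.52 (Cdkn1c) to 0.50 (Ascl2). Ascl2, a trophoblast transcription factor, read 5.22 and 5.75 against 5.91 and 6.06, without overlap (limma adjusted p = 0.204). Cd81, a tetraspanin, differed by 0.19, Osbpl5, a lipid-binding protein gene, by 0.29, Slc22a18, a transporter, by 0.07, Tspan32 by -0.06 and Tssc4 by -0.20. Kcnq1, the potassium channel gene that holds the start of Kcnq1ot1, differed by -0.00 (limma adjusted p = 0.986). Kcnq1 is named here after its value was seen.

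The Snrpn cluster, whose paternal genes are lost in Prader-Willi syndrome, held lower and higher genes side by side. Peg12 (also called Frat3), a paternally expressed gene of the Frat family of Wnt pathway activators, read 8.99 and 8.72 in GFP+ cells against 7.33 and 6.81 in GFP- cells. It differed by -1.78 on the log2 scale (standard error 0.21, limma adjusted p = 0.0213), or 3.44-fold lower, with no overlap. Ndn was lower as described, at the 5 of its 8 probe sets that were well expressed, and the 3 that did not pass were dim. Its most expressed probe set is also of the x_at type. Magel2, a ubiquitin ligase regulator of the hypothalamus, read 9.72 and 9.36 against 9.0 and 8.84, with a log2 difference of -0.62 (limma adjusted p = 0.0855). Mkrn3, a brake on puberty, read 9.28 and 9.08 against 8.81 and 8.48, with a log2 difference of -0.54 (limma adjusted p = 0.105). For both genes all GFP- values lay below all GFP+ values, although neither passed. Snrpn, which encodes a splicing protein of neurons, read 6.64 and 6.71 in GFP+ cells against 7.24 and 7.22 in GFP- cells. Its log2 difference was 0.55 (standard error 0.07, limma adjusted p = 0.0279), the only paternal gene called higher. This rests on its sole own probe set, since its other 6 are shared with Snurf, which is read in the same transcript, and were not used. The calls of Peg12 and Snrpn were lost without GFP+ replicate 1, and that of Snrpn also without GFP+ replicate 2.

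Ube3a, the maternally expressed ubiquitin ligase of Angelman syndrome, lies beside these genes. It read 11.70 and 11.75 in GFP+ cells against 11.43 and 11.46 in GFP- cells, for a log2 difference of -0.28 (95% interval from limma -0.47 to -0.09, adjusted p = 0.0960). Of its 6 probe sets 1 passed, with a log2 difference of -0.76 (limma adjusted p = 0.0388), and another differed by 0.26 in the opposite direction without passing. The probe sets of Ube3a therefore differed among themselves in direction.

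In the Peg10 cluster on chromosome 6 the neighbours Calcr, Sgce and Ppp1r9a passed, and Peg10 itself did not. Calcr, the calcitonin receptor, which is maternally expressed in the brain, read 6.66 and 6.82 in GFP+ cells against 8.63 and 8.85 in GFP- cells. It differed by 2.0 on the log2 scale (standard error 0.11, limma adjusted p = 0.00662), or 3.99-fold higher, the largest higher value among the imprinted genes. Its call held without either GFP+ array. Ppp1r9a, the actin-binding neuronal protein neurabin, read 9.81 and 9.65 in GFP+ cells against 9.03 and 9.12 in GFP- cells, for a log2 difference of -0.66 (limma adjusted p = 0.0319). Of its 5 probe sets 3 passed, all lower, with the largest difference at -1.54 (limma adjusted p = 0.0400), and 1 that did not pass differed by 0.06. Sgce had a second probe set with a larger difference, -1.44 (limma adjusted p = 0.00876), from 6.46 and 6.42 in GFP+ cells to 4.89 and 5.10 in GFP- cells. Peg10, a retrotransposon-derived gene required in the placenta, read 5.04 and 5.19 against 5.13 and 5.07, so the groups overlapped. Asb4, a ubiquitin ligase adaptor, differed by 0.58 (limma adjusted p = 0.181), without overlap, and by 0.32 to 0.84 over the arrays left out. The call of Ppp1r9a was lost without GFP+ replicate 1.

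**Figure D3:**
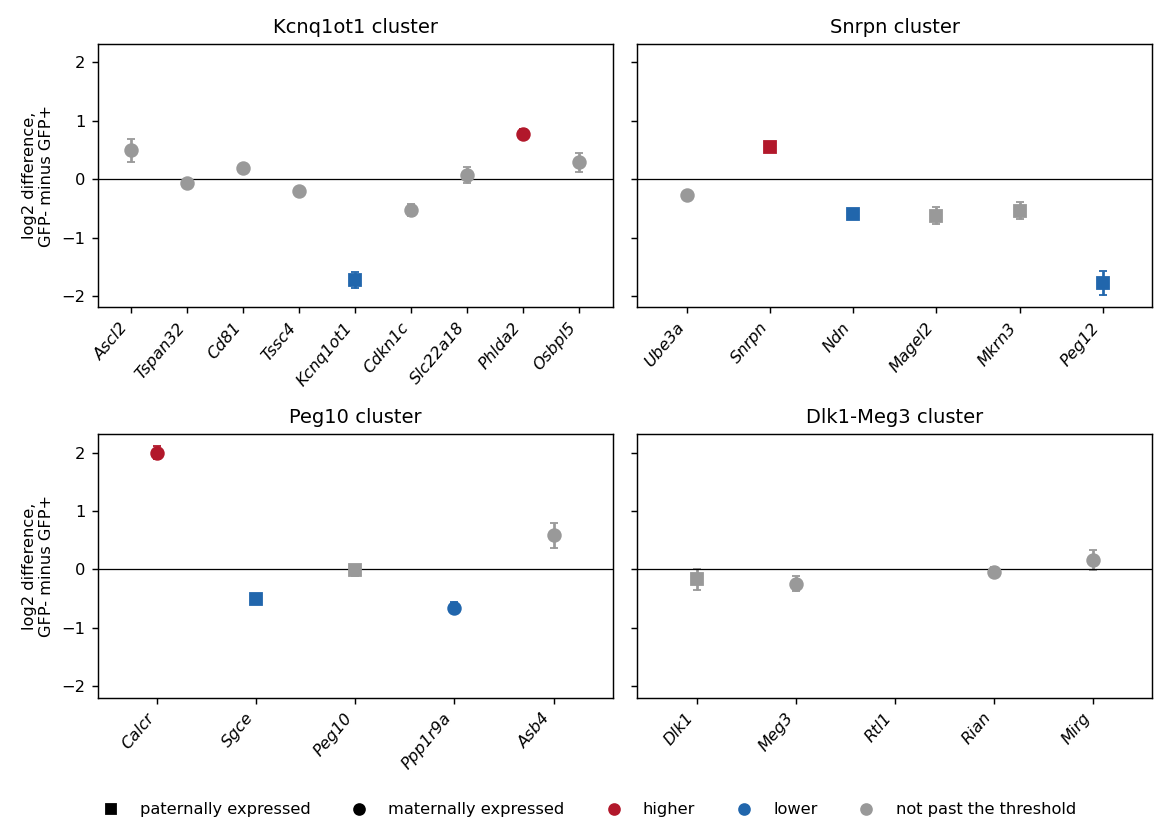
Log2 difference (GFP- minus GFP+, vertical axis) of the genes of 4 imprinted clusters, in their order along the chromosome (horizontal axis, not to distance). Squares are paternally and circles maternally expressed genes, bars are standard errors from limma and Rtl1 had no probe set of its own: lower and higher genes stand in the same cluster for Kcnq1ot1, Snrpn and Peg10, and the Dlk1-Meg3 genes lie between -0.24 and 0.16.

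The Mest cluster held a pair of genes called in opposite directions. Copg2, a coat protein gene that overlaps the end of Mest and is maternally expressed, read 9.23 and 9.13 in GFP+ cells against 9.72 and 9.74 in GFP- cells. Its log2 difference was 0.55 (standard error 0.08, limma adjusted p = 0.0309), while that of Mest was -0.88. The call of Copg2 was lost without either GFP+ array. Copg2 and Mest overlap tail to tail, and how far the probe sets separate them was not tested.

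In the Dlk1-Meg3 cluster, a locus known to lose its normal imprint in some cultured stem cell lines, no measured gene passed. Meg3, the maternally expressed long noncoding RNA, read 12.43 and 12.25 in GFP+ cells against 11.95 and 12.25 in GFP- cells, for a log2 difference of -0.24 (95% interval from limma -0.60 to 0.12). None of its 11 probe sets passed, although 10 of the 11 had a difference below 0, from -0.72 to -0.03, and 1 was at 0.35. These probe sets read 1 locus and are not replicates. Rian read 13.22 and 13.15 against 13.13 and 13.16, a log2 difference of -0.04 (95% interval from limma -0.23 to 0.16). Its other 3 probe sets ran from -0.62 to 0.40. Mirg, the host of a microRNA cluster, differed by 0.16 (limma adjusted p = 0.592). Of the 19 probe sets in this cluster 0 passed limma's test, and 5 had an unadjusted p under 0.05. Over the arrays, 12023 of all 45101 probe sets had such a p.

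The Peg3 cluster and the genes that lie alone completed the set. Usp29 and Zim1, neighbours of Peg3, and Rasgrf1, a Ras exchange factor, were dim, with log2 values under 5 on all arrays, and did not pass. Nnat, the brain-enriched proteolipid neuronatin, read 8.97 and 9.14 in GFP+ cells against 8.42 and 8.55 in GFP- cells, for a log2 difference of -0.57 (limma adjusted p = 0.0457). Both GFP- values lay below both GFP+ values, and the call was lost without either GFP+ array. Impact, a translational regulator of the brain, read 11.87 and 11.91 against 11.56 and 11.58, with a log2 difference of -0.32 (limma adjusted p = 0.0730). A second probe set of Impact was lower, at -0.41 (limma adjusted p = 0.0449).

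The less expressed probe sets gave a further reading of the same genes, though not an independent one, since they were hybridized on the same arrays. Over all 101 probe sets of imprinted genes, 24 were lower, 6 were higher and 71 did not pass, with a median log2 difference of -0.14. Of all 45101 probe sets 7.47% were called, 3.82% lower and 3.64% higher, with a median of 0.03. The 62 probe sets that were not the most expressed of their gene held 15 lower, 0 higher and 47 that did not pass. Among such probe sets of all named genes 6.63% were called, 3.38% lower and 3.25% higher. No less expressed probe set was called against the direction of a call at the most expressed probe set. Among the lower calls, 5 were probe sets of Kcnq1ot1, 5 of Ndn, 3 of Plagl1 and 3 of Ppp1r9a. Without GFP+ replicate 1, 7 probe sets were lower and 2 higher.

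**Figure D4:**
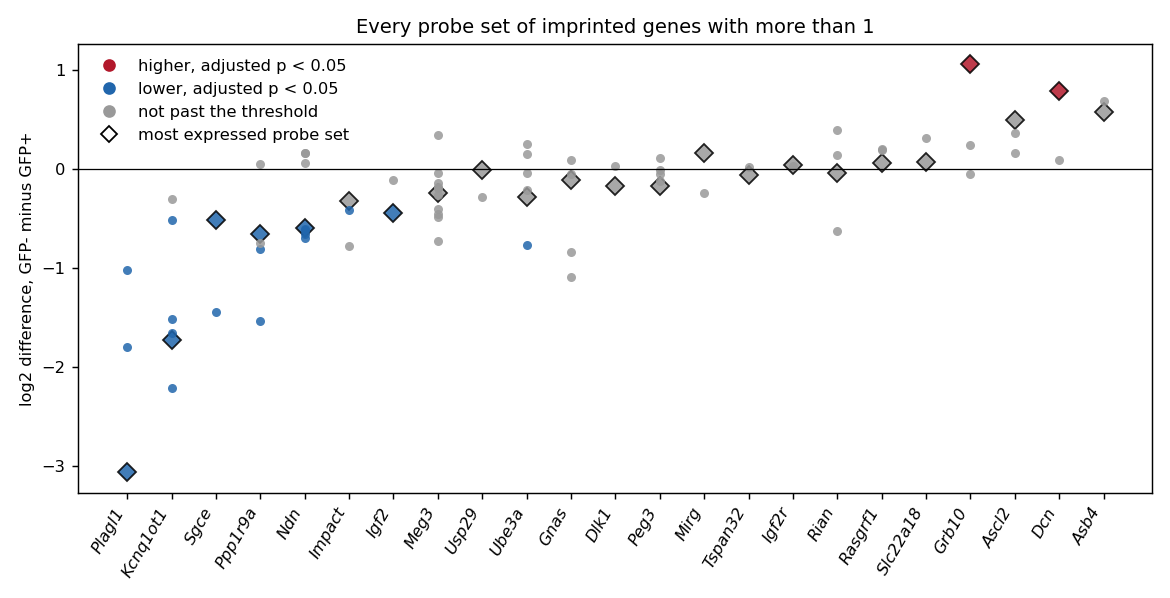
Log2 difference (GFP- minus GFP+, vertical axis) of every probe set of the 23 imprinted genes with more than 1, ordered by the median of the gene's probe sets. Diamonds mark the most expressed probe set and colours mark limma adjusted p under 0.05: all 3 probe sets of Plagl1 and 5 of 6 of Kcnq1ot1 are lower, while the 11 of Meg3 run from -0.72 to 0.35 with none past the threshold.

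Genes on a list for imprint maintenance were higher in GFP- cells or did not pass. The list was broader than genes that set or keep imprints and also held Tet1, Tet2 and Tet3. Of its 16 genes 15 were measured, 4 were higher and 0 were lower (26.7% called, against 8.02% of all genes). The median log2 difference was 0.12. Tet2 differed by -0.38, without overlap and without passing (limma adjusted p = 0.0580). Dnmt3l, a cofactor of de novo DNA methylation, read 6.27 and 6.38 in GFP+ cells against 8.53 and 8.75 in GFP- cells, for a log2 difference of 2.31 (standard error 0.11, limma adjusted p = 0.00551). Dppa3, which protects methylation after fertilization, differed by 0.92 (limma adjusted p = 0.0290), and the methyltransferase Dnmt3b by 0.87 (limma adjusted p = 0.0126). The methyltransferase Dnmt3a, named after its value was seen, differed by 0.74 (limma adjusted p = 0.0230). Trim28, the corepressor through which Zfp57 acts, differed by 0.12 and did not pass (limma adjusted p = 0.378).

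Of 28 other imprinted genes 25 were measured, 2 were higher, 0 were lower, and the median log2 difference was 0.07. The share called was 8.0%, against 8.02% of all genes, whose median was 0.05, so this list lay at the background. Sfmbt2, a Polycomb-group gene that is paternally expressed in the placenta, read 6.18 and 6.27 in GFP+ cells against 7.77 and 7.81 in GFP- cells, for a log2 difference of 1.57 (limma adjusted p = 0.00611). Atp10a differed by 0.75 (limma adjusted p = 0.0416), and the well expressed Nap1l4, a histone chaperone gene, by -0.07 (limma adjusted p = 0.629).

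Of the Plagl1 family and genes reported as Plagl1 targets, all 10 were measured. Of these, 3 were lower and 0 were higher (30% called, against 8.02% of all genes), with a median log2 difference of -0.13. Adcyap1r1 differed by 0.53, without overlap and without passing (limma adjusted p = 0.0540). Col1a1 (-0.10) and Col3a1 (-0.06) did not pass, and their groups overlapped. Col1a2, a collagen chain, read 10.72 and 10.88 in GFP+ cells against 8.67 and 8.61 in GFP- cells, for a log2 difference of -2.15 (limma adjusted p = 0.00551). Plagl2, the close relative of Plagl1, differed by -0.62 (limma adjusted p = 0.0310), Tcf4, a basic helix-loop-helix factor, by -0.48 (limma adjusted p = 0.0416), and Socs3, a feedback inhibitor of cytokine signaling, by -0.16 without passing. Of 15 genes of the Igf pathway 14 were measured, and 1 was lower and 1 higher. The share called was 14.3%, against 8.02% of all genes, with a median of -0.03 for the pathway. The binding protein Igfbp5 read 10.79 and 10.91 in GFP+ cells against 8.77 and 8.99 in GFP- cells, a log2 difference of -1.97 (limma adjusted p = 0.00638). Pappa, a protease of Igf binding proteins, differed by 1.87 (limma adjusted p = 0.0450), and the RNA-binding protein gene Igf2bp1 by -0.17 without passing (limma adjusted p = 0.221).

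Markers of several other cell types also differed between the sorted groups. The shares called were 76.9% of endoderm, 90% of pluripotency, 28.6% of trophoblast and 66.7% of neuroectoderm markers. Of mesoderm markers 11.1% were called, near the 8.02% of all genes. Over all genes 5.4% were higher and 2.63% lower. Of 13 endoderm markers measured 10 were higher in GFP- cells, with mean log2 levels of 6.0 and 6.49 in GFP+ cells against 8.04 and 8.21 in GFP- cells. Sox17 differed by 3.09, Cubn by 2.87 and Ttr by 2.48, while Hnf4a, at 0.61, did not pass. Of 10 pluripotency markers 9 were higher, with mean levels of 6.80 and 6.68 against 9.09 and 9.05, led by Nanog (3.51), Tdgf1 (3.10) and Dppa5a (3.01). Esrrb, at 0.26, did not pass. Of 9 mesoderm markers Pdgfra alone was higher (2.05), with mean levels of 5.80 and 5.79 against 6.30 and 6.13, and Twist1 differed by 0.04 without passing. Of 7 trophoblast markers Eomes (2.48) and Tfap2c (0.86) were higher, with mean levels of 6.07 and 6.20 against 6.83 and 6.78, and Krt8, at 0.47, did not pass. Of 9 neuroectoderm markers 6 were lower, including Lhx2 (-1.80), Pax6 (-1.45) and Hes5 (-1.07), with mean levels of 11.2 and 11.2 against 10.4 and 10.4. Sox2 differed by -0.24 without passing. RMA values have no 0, so absence of a marker cannot be read from them. The part of these markers in the differences of the imprinted genes was not tested.

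The 3′ and 5′ ends of control transcripts give a measure of RNA quality. The log2 gap (3′ minus 5′) of the Gapdh control probe sets was 0.73 and 0.50 in GFP+ cells against 0.46 and 0.43 in GFP- cells. That of beta-actin was 1.33 and 1.17 against 1.15 and 1.08, so GFP+ replicate 1 had the widest gap for both controls. A pair of other nuclear noncoding RNAs, chosen after their values were seen, did not pass at their most expressed probe sets: Malat1 differed by -0.08 (limma adjusted p = 0.767) and Neat1 by 0.17 (limma adjusted p = 0.227). Of the less expressed probe sets, 1 of Malat1 was lower (-0.73, limma adjusted p = 0.0377) and 1 of Neat1 was higher (1.19, limma adjusted p = 0.0330). All probe sets of Malat1 had a lower mean in GFP- cells, with differences from -0.90 (limma adjusted p = 0.119) to -0.02. Both of Neat1 had a higher mean. The part of RNA quality in the differences was not tested.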

How the data were processed

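The authors deposited log2 expression values made by RMA, which corrects the background and forces the arrays onto 1 distribution, hiding any difference in total RNA. The submitters' processing notes name R 2.13.0. The deposited log2 values ran from 2.20 to 15.1 over 4 arrays. Their methods used limma with a q-value threshold.

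From these values all 45101 probe sets entered a limma fit of 2 groups (limma 3.58.1, R 4.3.3) without filter or block, and Benjamini-Hochberg adjusted p-values under 0.05 were called. The residual degrees of freedom were 2 and the prior 2.52. Genes were named from the platform annotation, only from probe sets with 1 symbol, and represented by the probe set with the highest mean over all arrays. Dim means not reaching a log2 value of 5 on at least 2 arrays. The imprinted genes, their clusters and the other lists were chosen with earlier results of these data known. All imprinted genes were named, with some of the probe sets that differ from the most expressed in call or direction. Others did not pass and had the opposite sign to the most expressed, among them probe sets of Mirg (-0.24), Peg3 (0.11), Dlk1 (0.03) and Tspan32 (0.03). Of each other list, up to 3 called genes with the largest differences and the most expressed gene that did not pass were named. Promoter windows were RefSeq sequences of build GRCm38.p6.

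Alternatives were a replicate block, Storey's q-value (lambda 0.5), the filter on dim probe sets, centring on array medians, quantile normalization, an intensity trend, array weights, no control probe sets, gene means and leaving out each array. The labels do not say that a number marks a shared batch, so the replicates were not treated as pairs. The correlation of the replicate differences between the groups was -0.05, which cannot show that pairs are absent.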

Additional observations from a re-analysis of the deposited data

How the results depend on the processing

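The 15 calls of imprinted genes were the same genes after centring, quantile normalization, array weights and leaving out the control probe sets. With the replicate block, which leaves 1 residual degree of freedom, 0 genes and 0 probe sets passed in either direction, imprinted or not, and 11019 of all probe sets had an unadjusted limma p under 0.05. The correlation of the replicate differences, -0.05, cannot decide whether arrays of the same number came from 1 experiment, since it rests on 2 arrays per group. The calls therefore rest on the fit without this block. Storey's q-value added Cdkn1c, Impact and Magel2 (18 called), the filter Cdkn1c and Impact (17), and gene means the same 3 as Storey's while losing Igf2 (17). Each of these settings gave 2 lower maternal genes. The intensity trend gave 21 calls, with 14 lower genes in all and 3 lower maternal genes. Over the arrays left out, called probe sets ran from 0 to 4 higher and from 0 to 16 lower, and called genes from 0 to 4 higher and from 0 to 5 lower. Paternal genes numbered 0 higher in every such fit and from 0 to 4 lower, and maternal genes from 0 to 4 higher and 0 to 1 lower. The differences of genes near 0 changed sign. Centring gave 0.036 for Usp29 and 0.022 for Peg10, and gene means gave -0.038 for Mirg. Leaving out arrays gave ranges of -0.075 to 0.069 for Usp29, -0.097 to 0.24 for Slc22a18, -0.069 to 0.16 for Igf2r, -0.021 to 0.14 for Rasgrf1, -0.24 to 0.0032 for Zim1, -0.094 to 0.060 for Peg10, -0.41 to 0.079 for Dlk1 and -0.055 to 0.38 for Mirg. Other genes that did not pass kept their sign but moved by over 1.5 times, with ranges of -0.39 to -0.091 for Meg3, -0.073 to -0.0051 for Rian, -0.22 to -0.12 for Peg3, -0.80 to -0.44 for Magel2, -0.70 to -0.37 for Mkrn3, 0.32 to 0.84 for Asb4, 0.23 to 0.77 for Ascl2, -0.075 to -0.048 for Tspan32, 0.13 to 0.45 for Osbpl5, -0.14 to -0.073 for Gnas and -0.56 to -0.21 for Gatm. A lone array of a group was assumed to vary like the arrays of the other group. The cause of these changes was not tested.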
